A study of Mus musculus with 32 samples.

Results

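The 40 genes described here encode parts of the skeletal muscle fibre and were chosen by name. Each matched 1 of the 55359 gene identifiers in the bone table and 1 of the 55359 in the gingiva table. By role, 24 are contractile proteins of the sarcomere, 6 act in energy metabolism and oxygen storage, 5 handle calcium, 3 support or regulate the fibre, and 2 are transcription factors of muscle differentiation. The study took bone and gingiva from wild-type C57BL/6J male mice aged 9 weeks and sequenced poly(A) RNA. In Li mice a silk ligature was tied around the left second molar of the upper jaw, which gathers bacteria and inflames the gum. In Tra mice the biting face of that molar was raised with composite resin. LiTra mice had both the ligature and the resin, and Co mice had neither. Each of the 4 groups had 4 libraries in each tissue, 32 in all. The labels give no time between treatment and sampling, and they tie neither the bone and gingiva libraries nor the replicate numbers to 1 animal, so the p-values measure the spread between libraries, which may be partly technical.

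Skeletal muscle contracts when calcium released from the sarcoplasmic reticulum lets myosin thick filaments pull on actin thin filaments, which are anchored at Z discs. Fast fibres use their own myosin, troponin and calcium pump genes, and slow fibres use another set, some of it shared with the heart. Fibres fuel contraction with creatine phosphate, glycogen and mitochondria, and myoglobin stores their oxygen. The muscles of chewing and of the cheek and lip insert close to the molars, while gum and jaw bone are not themselves muscle tissue.

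Total counts ranged from 38163979 to 70793037 per bone library and from 36913075 to 50740393 per gingiva library. The 40 genes took 0.00747% to 0.133% of the counts in bone and 0.0336% to 1.35% in gingiva. Levels below are CPM, counts divided by library size and scaled with edgeR's TMM factors, not corrected for gene length. In gingiva the epithelial keratin Krt5 stood at 4621 to 8128 CPM, and the osteoblast gene Bglap at 1.74 to 229 CPM. In bone Bglap stood at 380 to 2127 CPM. In bone, 14 nasal gland genes took 24% of the counts in Li2, 22.7% in Tra3, 50.1% in LiTra1, 47.0% in Co3 and 14.7% in Co4, and at most 6.98% in the other 11 libraries. The scaling factors were 0.371 in Tra3, 0.575 in LiTra1 and 0.624 in Co3, against 0.944 to 1.22 in the other 13 bone libraries, so that CPM in those 3 libraries are scaled up. The summed level of 9 heart muscle genes ranged from 4.12 to 76.3 CPM in gingiva, highest in Li2, and from 4.02 to 13.7 CPM in bone. Of these, Myl4 is also expressed in embryonic muscle and Sln in skeletal muscle, and they reached 57.4 and 15.9 CPM in gingiva. Myh6, the atrial and ventricular myosin of the mouse heart, reached at most 0.435 CPM in gingiva and 1.11 CPM in bone, and Nppa, the atrial natriuretic peptide, at most 0.207 and 0.283 CPM. Nppb, the other natriuretic peptide of the heart, reached 4.92 CPM in gingiva. The summed level of 11 smooth muscle genes other than Des ranged from 181 to 499.6 CPM in gingiva and from 352 to 630.0 CPM in bone. The part of heart and smooth muscle in the results was not tested.

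Promoter sequence is shown for a contractile and a support gene whose counts were higher relative to titin in ligated gingiva than in Co (Acta1, Des), and for a pair of metabolic genes whose counts were lower relative to Acta1 or titin (Ckmt2, Pygm), because the comparison of contractile with metabolic genes turns on them. Each line is the 250 bases before the RefSeq start in GRCm38.p6, read 5′ to 3′ on the gene's strand. Capitals mark CAGCTG, the E box core that the myogenic factors MyoD and myogenin are known to bind, and, in Acta1, the CArG box, the element of serum response factor. Acta1 lies at chr8:123894776-123895025 on the minus strand, Des at chr1:75360042-75360291 on the plus strand, Ckmt2 at chr13:91876886-91877135 on the minus strand and Pygm at chr19:6384158-6384407 on the plus strand.
Acta1: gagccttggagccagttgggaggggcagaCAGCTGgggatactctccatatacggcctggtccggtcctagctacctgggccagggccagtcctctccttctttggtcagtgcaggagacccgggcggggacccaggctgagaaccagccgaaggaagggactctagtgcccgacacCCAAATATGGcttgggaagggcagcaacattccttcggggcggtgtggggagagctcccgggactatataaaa
Des: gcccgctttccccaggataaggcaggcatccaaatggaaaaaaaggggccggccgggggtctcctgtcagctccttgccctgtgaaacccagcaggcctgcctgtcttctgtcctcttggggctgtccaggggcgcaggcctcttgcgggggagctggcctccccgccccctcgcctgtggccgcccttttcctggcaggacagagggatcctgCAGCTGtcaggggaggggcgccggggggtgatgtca
Ckmt2: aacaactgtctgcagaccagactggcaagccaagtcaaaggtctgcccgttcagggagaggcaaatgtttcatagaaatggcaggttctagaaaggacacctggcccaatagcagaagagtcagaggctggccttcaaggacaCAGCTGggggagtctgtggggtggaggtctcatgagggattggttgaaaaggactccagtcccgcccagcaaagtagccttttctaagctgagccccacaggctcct
Pygm: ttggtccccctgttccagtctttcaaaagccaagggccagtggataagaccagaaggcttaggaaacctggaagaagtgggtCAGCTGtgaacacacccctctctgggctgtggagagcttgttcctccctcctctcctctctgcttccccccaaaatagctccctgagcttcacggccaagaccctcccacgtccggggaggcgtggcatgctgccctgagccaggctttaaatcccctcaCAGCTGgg
All 4 windows hold CAGCTG, and Pygm holds it in 2 places. It begins 221 bases before the start in Acta1, 36 in Des and 107 in Ckmt2. The CArG box of Acta1 begins 73 bases before the start. Of the 40 genes, 32 have such a window in the RefSeq table. A gene was counted if any of its windows held the motif, while the shares of all windows are over single windows. Genes with several windows, such as Mb and Tnni1, had more chances to match, so counts and shares are not like for like. CAGCTG, searched on both strands, occurs in 18 of these 32, against 13.0% of all 32841 windows. The looser E box CANNTG, which includes CAGCTG, occurs in 28 of 32, against 66.2% of all windows. The MEF2 box occurs in 7 of 32, against 1.69%, the CArG box in 4 of 32, against 1.47%, and TATAAA in 6 of 32, against 12.4%. Of the windows shown only that of Acta1 is of a contractile gene, so they do not compare the roles. The windows of Tnnt1, also contractile, and of Myog hold no CAGCTG. A match is a description of letters only.

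Muscle transcripts varied widely between libraries. Among the 33 genes above 0 in all 16 gingiva libraries, the highest library exceeded the lowest by a median of 86.7-fold, and for 31 of them by over 20-fold. Among the 26 such genes in bone the median was 56.9-fold. These folds span all 4 groups, so differences between treatments are part of them. Libraries of 1 group also differed: Myh1 in Tra gingiva, for one, stood at 2675, 599, 38.3 and 128 CPM. Gingiva library Tra1 was highest for 28 of the 40 genes and Li2 for 10. Bone library Tra3 was highest for 29, with its scaling factor of 0.371; by CPM without TMM scaling, bone Tra1 was highest for 23 and Li3 for 14. Tpm2, which encodes beta-tropomyosin and is also expressed in smooth muscle and other cells, varied least in gingiva, by 3.84-fold. In bulk RNA, fewer muscle fibres in a sample and less RNA per fibre cannot be told apart.

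**Figure D1:**
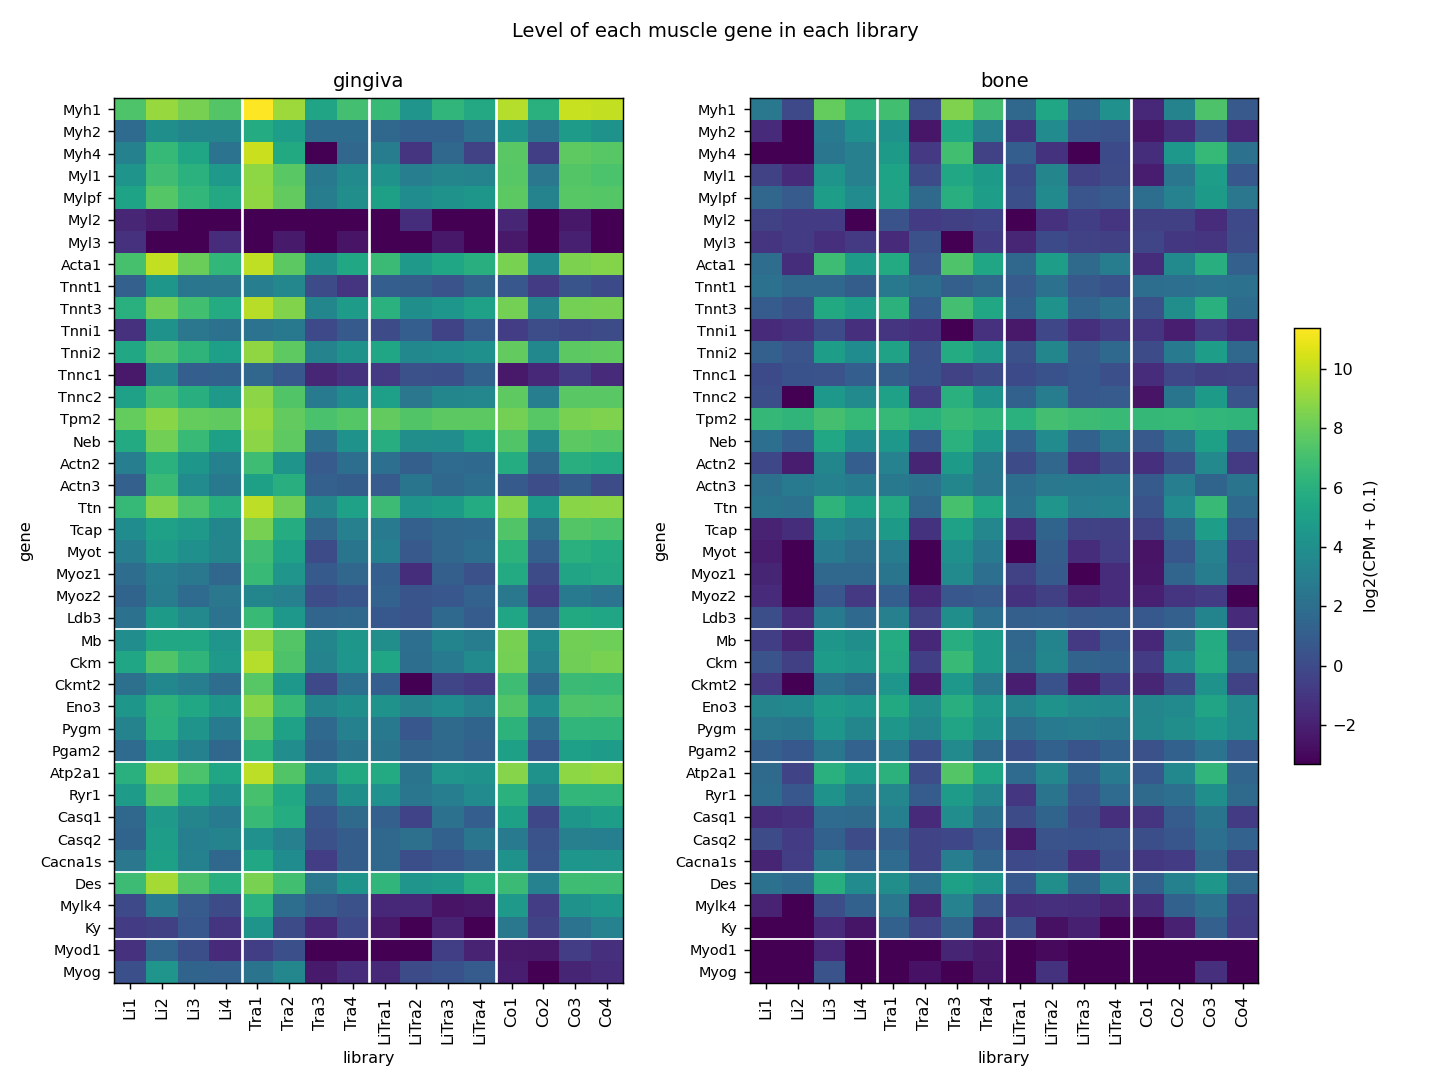
Level of each of the 40 muscle genes in each gingiva and bone library, as log2 of CPM plus 0.1 (colour scale). White lines part the groups (Li, Tra, LiTra, Co) and the roles (contractile, metabolic, calcium, support, regulators). Most genes rise and fall together between libraries of a group: in gingiva Tra1 is bright and Tra3 dark, and Co2 is dark beside the other 3 Co libraries.

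The summed level of the 24 contractile genes in gingiva was 949, 4088, 1680 and 845 CPM in Li libraries 1 to 4, 10598, 3092, 275 and 534 CPM in Tra, 828, 325, 476 and 527 CPM in LiTra, and 3911, 373, 4217 and 4140 CPM in Co. The summed level of the 6 metabolic genes was 94.5, 391, 205 and 79.4 CPM in Li, 2312, 499, 37.4 and 76.7 CPM in Tra, 88.3, 21.4, 38.1 and 33.6 CPM in LiTra, and 1045, 44.9, 991 and 977 CPM in Co. Co2 stood apart from the other 3 Co libraries in both sums. Apart from Co2, the Co libraries lay above all 4 LiTra libraries in both sums.

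**Figure D2:**
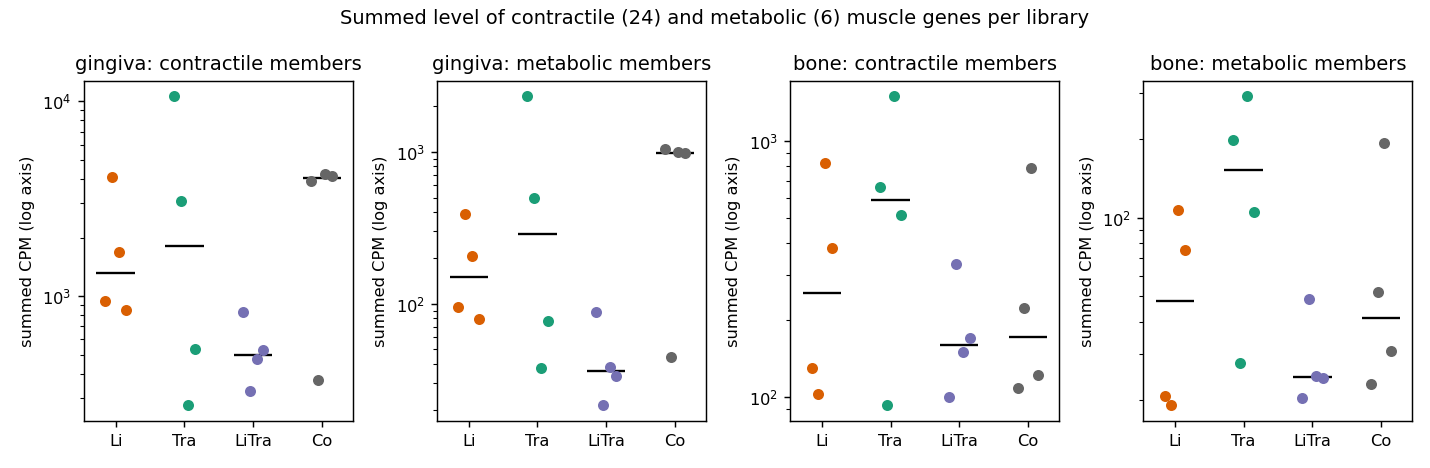
Summed CPM (log axis) of the 24 contractile and the 6 metabolic genes in each library, by tissue and group. Points are libraries and the lines are group medians. In gingiva all 4 LiTra libraries lie at 325 to 828 contractile CPM, and 3 of the 4 Co libraries at 3911 to 4217.

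In gingiva, 17 of the 38 muscle genes tested were lower in LiTra than in Co and 0 were higher, in edgeR's quasi-likelihood test with Benjamini-Hochberg adjusted p under 0.05. Across all 20143 genes tested, 22.9% were called in this comparison, and 11.5% were called lower. By role, 9 of 22 contractile, 5 of 6 metabolic, 1 of 5 calcium, 2 of 3 support and 0 of 2 regulator genes were lower. The median log2 difference was -2.80 for the contractile genes, -4.02 for the metabolic genes and -0.01 for all genes tested. The count was 23 without Co2, 7 without any 1 of the other 3 Co libraries, 10 without LiTra1, 7 without LiTra2, 7 without LiTra3 and 6 without LiTra4. Ckmt2, Ky, Ldb3, Mb, Mylk4 and Tcap were called in every fit that left out 1 library. With limma-voom 5 genes passed, and of these 6 only Mb kept its call; with no filter on low counts 11 passed, and with the compared groups alone 26 were lower and 3 higher.

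Among thick filament genes, Myh1, the myosin heavy chain of fast 2X fibres, stood at 96.5, 20.2, 81.1 and 47.7 CPM in LiTra gingiva, against 877, 65.4, 1132 and 1052 CPM in Co gingiva. Myh1 was lower by a log2 difference of -3.67 ± 1.10 (SE, adjusted p = 0.0267), and LiTra1, LiTra3 and Co2 overlapped. Myh2, the heavy chain of 2A fibres, stood at 3.09, 2.28, 2.30 and 4.51 CPM in LiTra and at 18.8, 5.34, 27.3 and 18.8 CPM in Co, with no overlap (log2 -2.53 ± 0.78, adjusted p = 0.0295). Myh4, the heavy chain of the fastest 2B fibres, stood at 7.32, 0.391, 3.10 and 0.619 CPM in LiTra and at 201, 0.575, 214 and 188 CPM in Co. The Co libraries other than Co2 were far above LiTra, but Myh4 did not pass (log2 -5.73 ± 2.14, adjusted p = 0.0661). Myl1, a fast essential light chain, also fell (log2 -3.53 ± 1.19, adjusted p = 0.0444). Myl2 and Myl3, the light chains of slow fibres and the heart ventricle, were below the filter on low counts in gingiva. Myl2 reached at most 0.276 CPM there, in LiTra2.

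On the thin filament only Tnnc2, the calcium sensor of fast fibres, fell, with a log2 difference of -3.39 ± 1.17 (adjusted p = 0.0488). Acta1, skeletal muscle actin, stood at 103, 23.8, 41.2 and 59.3 CPM in LiTra gingiva, against 353, 13.9, 356 and 414 CPM in Co gingiva. Acta1 in Co2 lay below every LiTra library, and the difference did not pass (log2 -2.32 ± 1.16, adjusted p = 0.169). Tnnt3, the fast troponin T, stood at 68.3, 15.9, 21.6 and 34.3 CPM in LiTra and at 326, 10.3, 323 and 339 CPM in Co. Tpm2 stood at 229, 168, 209.9 and 209.9 CPM in LiTra and at 315, 188, 352 and 378 CPM in Co (log2 -0.59 ± 0.35, adjusted p = 0.257). The slow troponin genes Tnnt1 and Tnnc1 had positive differences of 0.86 and 2.26 that did not pass.

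At the Z disc 5 of 8 genes fell. Tcap, which caps titin at the Z disc, stood at 6.28, 2.23, 3.10 and 3.23 CPM in LiTra gingiva, against 172, 4.14, 176 and 148 CPM in Co gingiva. Tcap had the largest contractile change that passed (log2 -5.08 ± 1.31, adjusted p = 0.0127), and LiTra1 overlapped Co2. Myoz1, a calcineurin-binding Z disc protein, fell by 4.63 (SE 1.26, adjusted p = 0.0165) and Ldb3, a PDZ and LIM domain protein of the Z disc, by 4.13 (SE 1.12, adjusted p = 0.0161) on the log2 scale. Actn2, an alpha-actinin that crosslinks actin, and Myot, myotilin, fell as well (log2 -3.76 and -3.56). Ttn, the giant spring that spans from Z disc to M line, did not pass (log2 -2.67, adjusted p = 0.108).

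The metabolic genes fell in 5 of 6 cases. Mb, which encodes myoglobin, stood at 15.5, 4.05, 9.89 and 7.17 CPM in LiTra gingiva, against 333, 12.6, 307 and 282 CPM in Co gingiva, a log2 difference of -4.67 ± 1.15 (adjusted p = 0.0099), with LiTra1 just above Co2. Ckmt2, the creatine kinase of muscle mitochondria, stood at 2.03, 0, 0.757 and 0.550 CPM in LiTra and at 113, 3.11, 106 and 101 CPM in Co. LiTra did not overlap Co for Ckmt2 even with Co2 counted, and its difference was the largest of the 6 (log2 -6.62 ± 1.58, adjusted p = 0.0085). Ckm, the creatine kinase of the cytoplasm, stood at 41.4, 3.88, 6.89 and 12.5 CPM in LiTra and at 322, 8.96, 300.0 and 341 CPM in Co (log2 -3.91 ± 1.34, adjusted p = 0.0475). Pygm, muscle glycogen phosphorylase, stood at 6.2, 1.49, 3.36 and 2.54 CPM in LiTra and at 74.3, 4.05, 82.1 and 78.2 CPM in Co (log2 -4.14 ± 1.24, adjusted p = 0.0263). Both Ckm and Pygm in LiTra overlapped only Co2. Eno3, the muscle enolase of glycolysis, stood at 18.1, 9.47, 14.2 and 8.61 CPM in LiTra and at 168, 14.6, 163 and 147 CPM in Co (log2 -3.29 ± 1, adjusted p = 0.0281). Pgam2, the muscle phosphoglycerate mutase, did not pass (log2 -2.89, adjusted p = 0.0529).

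Of the calcium genes, Atp2a1, the calcium pump of fast fibres, fell: it stood at 50.7, 4.92, 20.4 and 18.6 CPM in LiTra gingiva, against 429, 18.9, 479 and 531 CPM in Co gingiva (log2 -3.95 ± 1.28, adjusted p = 0.0373). The release channel Ryr1, the calcium stores Casq1 and Casq2 and the voltage sensor Cacna1s had negative differences that did not pass. Among the support genes, Mylk4, a kinase of the myosin light chain kinase family, stood at 0.228, 0.230, 0.071 and 0.0916 CPM in LiTra, against 24.2, 0.551, 18.7 and 23.2 CPM in Co. All 4 LiTra libraries were below every library of the other groups, and Mylk4 had the smallest adjusted p of the 38 genes (log2 -6.73 ± 1.57, adjusted p = 0.0076). Ky, a protease-like protein needed for muscle growth in mice, stood at 0.101, 0, 0.166 and 0 CPM in LiTra, likewise below every other library, and at 5.87, 0.718, 4.82 and 9.20 CPM in Co (log2 -6.23 ± 1.49, adjusted p = 0.00852). Des, desmin, the intermediate filament that ties Z discs together, stood at 82.6, 20.3, 24.4 and 66.0 CPM in LiTra and at 104, 9.24, 112 and 110.0 CPM in Co. Des in Co2 lay below every LiTra library, and the gene did not pass (log2 -0.79 ± 1.04, adjusted p = 0.644).

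**Figure D3:**
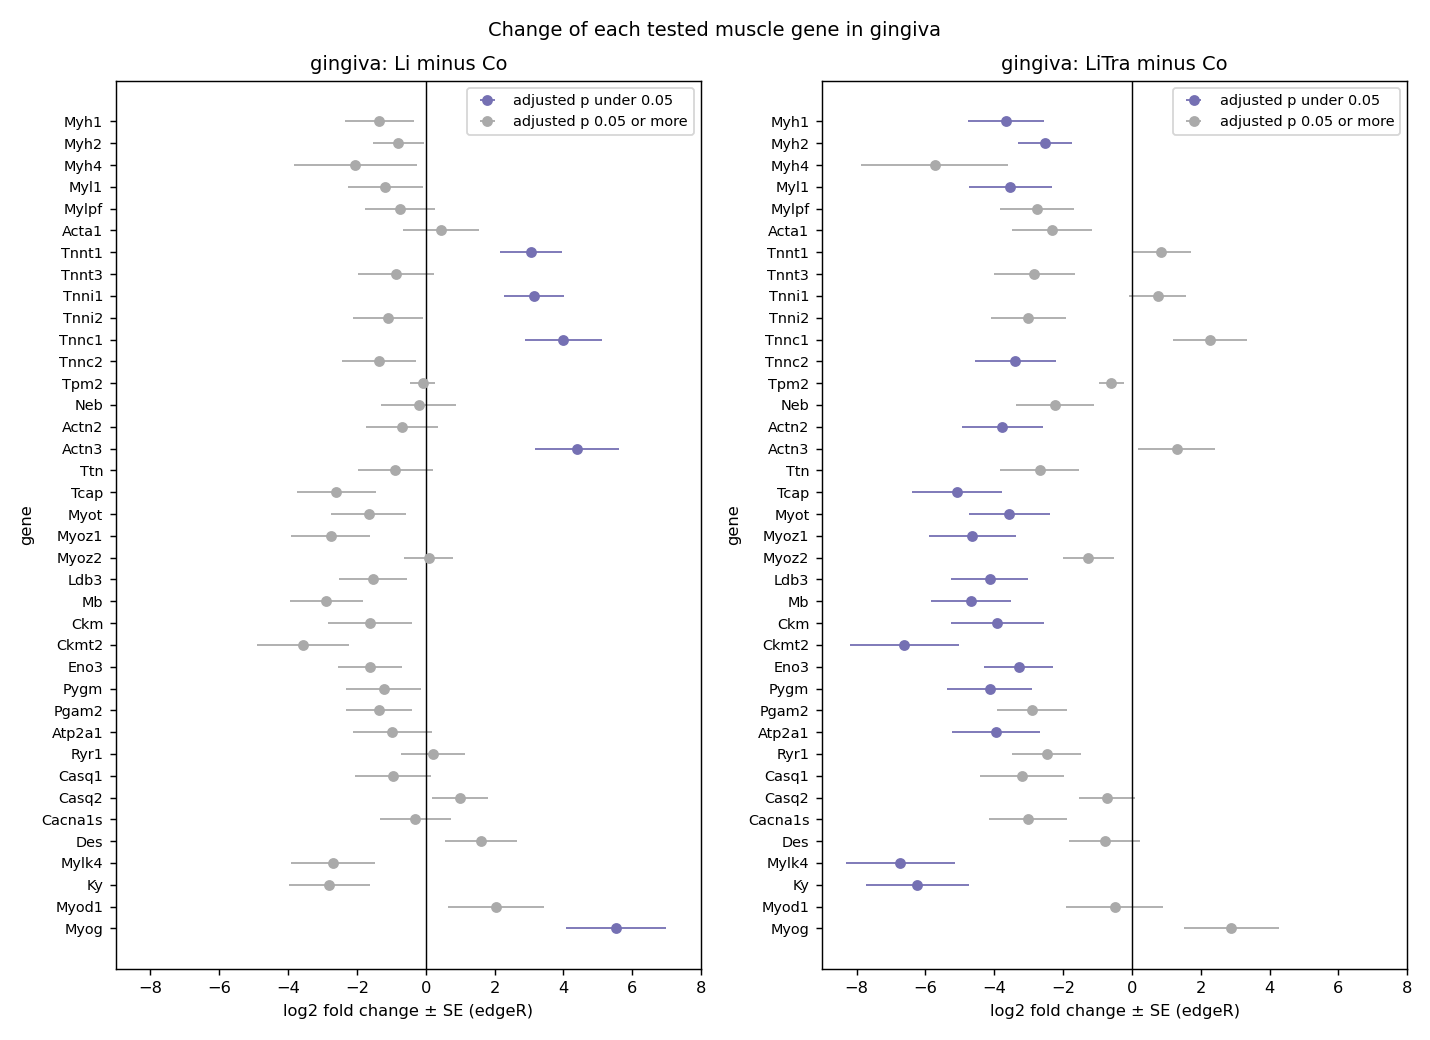
Log2 fold change with its SE (edgeR) of each of the 38 tested muscle genes in gingiva, Li minus Co on the left and LiTra minus Co on the right. Coloured points passed at adjusted p under 0.05. On the right the 17 genes that passed lie left of 0; on the left the 5 that passed lie right of 0.

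The same treatment against resin alone gave a similar count. In gingiva, 15 of 38 muscle genes were lower in LiTra than in Tra and 0 were higher, where 18.8% of all genes were called and 9.44% were called lower. These were 7 of 22 contractile, 5 of 6 metabolic, 1 of 5 calcium and 2 of 3 support genes, with median log2 differences of -3.12 for contractile and -4.14 for metabolic genes and -0.01 for all genes tested. Mb stood at 535, 174, 10.9 and 21.9 CPM in Tra gingiva, so that Tra3 lay among the LiTra libraries and the other 3 above them (log2 -4.34 ± 1.13, adjusted p = 0.0161). Ckmt2 stood at 192, 23.4, 0.868 and 4.12 CPM in Tra (log2 -6.06 ± 1.55, adjusted p = 0.0147). Mylk4 stood at 68.1, 3.96, 1.84 and 1.15 CPM in Tra, all above LiTra (log2 -6.90 ± 1.58, adjusted p = 0.00843). Myh4 and Casq1, which had not passed against Co, passed here (log2 -6.76 ± 2.24, adjusted p = 0.0469, and log2 -4.11 ± 1.25, adjusted p = 0.0335). The count depended on single libraries: it was 2 without Tra1, 24 without Tra3, 23 without Co2, 7 without LiTra1, 4 without LiTra2, 7 without LiTra3 and 4 without LiTra4. It was 24 with DESeq2, 0 with limma-voom and 4 with the replicate block.

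Resin alone was followed by no call in gingiva: 0 of 38 muscle genes and 0% of all genes passed in Tra against Co. Unadjusted, 4 muscle genes had p under 0.05, and DESeq2 called 2 higher. The median log2 difference of the muscle genes was 0.15. Acta1 stood at 1015, 209, 16.3 and 44.5 CPM in Tra gingiva. Myh4 stood at 1185, 48.4, 0 and 2.78 CPM in Tra, a spread that took in all 4 Co libraries. Ckm, at 863, 154, 9.31 and 20.9 CPM, Pygm, at 216, 34.6, 3.19 and 8.66 CPM, and Atp2a1, at 965, 172, 15.1 and 48.8 CPM in Tra, showed the same order, with Tra1 highest and Tra3 lowest.

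Ligature alone gave calls in the other direction. In gingiva, 5 of 38 muscle genes were higher in Li than in Co and 0 were lower, where 7.49% of all genes were called and 5.19% were called higher. Apart from Actn3 and Myog, they are the slow fibre troponins. Tnnt1, the slow troponin T, stood at 2.17, 21.9, 5.49 and 5.53 CPM in Li gingiva, against 1.5, 0.503, 1.29 and 0.899 CPM in Co gingiva, with no overlap (log2 3.06 ± 0.89, adjusted p = 0.0498). Tnni1, the slow troponin I, stood at 0.324, 18.6, 5.68 and 4.35 CPM in Li and at 0.534, 1.01, 0.767 and 0.952 CPM in Co (log2 3.15 ± 0.86, adjusted p = 0.0392). Tnnc1, the troponin C of slow fibres and heart, stood at 0.0998, 12.3, 2 and 2.24 CPM in Li and at 0.0971, 0.216, 0.479 and 0.238 CPM in Co (log2 4 ± 1.13, adjusted p = 0.0435). Li1 lay below all Co libraries for Tnni1 and within them for Tnnc1, and Li2 was the highest for each of these genes. The slow light chains Myl2 and Myl3 reached at most 0.200 and 0.324 CPM in Li, both in Li1, and were below the filter on low counts.

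Actn3, the alpha-actinin of fast fibres, stood at 2.2, 97.1, 13.6 and 5.97 CPM in Li, against 1.72, 1.01, 1.96 and 0.952 CPM in Co (log2 4.39 ± 1.22, adjusted p = 0.0418). Myog, myogenin, which switches myoblasts into fibre formation, stood at 1.12, 20.7, 2.56 and 2.42 CPM in Li, against 0.121, 0, 0.192 and 0.264 CPM in Co (log2 5.53 ± 1.45, adjusted p = 0.0332). Neither gene overlapped between Li and Co. Its partner Myod1, which commits cells to muscle, stood at 0.324, 2.69, 1.05 and 0.244 CPM in Li and at 0.0971, 0.0958, 0.527 and 0.317 CPM in Co, and did not pass. All 6 metabolic genes had negative differences (median log2 -1.62) but none passed. The 5 calls were lost without Li2 and without any 1 of the 4 Co libraries, and 3, 2, 2 and 1 were left without LiTra1, LiTra2, LiTra3 and LiTra4, which share the estimate of the spread. All 5 were also lost with no filter on low counts, with the replicate block, with limma-voom and with the compared groups alone. Des stood at 110.2, 688, 165 and 58.9 CPM in Li, where its difference to Co did not pass.

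The remaining genes named above did not pass in Li against Co. Acta1 stood at 139, 1042, 278 and 86.2 CPM in Li gingiva, Myh1 at 160.0, 564, 333 and 177 CPM, and Myh4 at 8.93, 93.1, 39.6 and 4.71 CPM. Li2 was the highest of its group for each, and Co2 was the 1 Co library below all 4 Li libraries. Mb stood at 14.6, 45.7, 46.0 and 19.99 CPM in Li, Ckm at 41.0, 171, 79.5 and 23.6 CPM, Eno3 at 21.9, 73.5, 43.6 and 22.1 CPM and Pygm at 9.43, 66.8, 19.3 and 6.91 CPM. For these 4 metabolic genes the Li libraries lay between Co2 and the other 3 Co libraries.

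Adding resin to the ligature gave no call: 0 of 38 muscle genes passed in LiTra against Li, where 0.0844% of all genes were called. All 38 differences were negative with a median log2 of -2.31, 17 had an unadjusted p under 0.05, and DESeq2 called 6 lower. For 14 of the 38 genes all LiTra libraries lay below all Li libraries, as they did for 5.99% of all genes tested; among the 14 were Myh1, Tcap, Ckmt2, Pygm and Mylk4. Ckmt2, for one, stood at 2.03 CPM or less in LiTra, against 4.14, 11.7, 7.71 and 3.78 CPM in Li. The interaction of ligature and resin passed for 0 of 38 genes and 0% of all genes, with 6 muscle genes at an unadjusted p under 0.05 and 1 called by DESeq2. The Li, Tra and LiTra comparisons with Co share the same 4 Co libraries, Co2 included.

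Metabolic and contractile genes were next compared within each library, as ratios of their counts, which do not depend on the scaling between libraries. Tpm2 was left out of the contractile sum here, since it made up 5.30% of that sum in Tra1 but 53.3% in Tra3. The metabolic sum, as a percentage of the contractile sum without Tpm2, was 13.5, 10.7, 14.3 and 12.9 in Li gingiva, 23.0, 17.5, 29.1 and 21.9 in Tra, 14.7, 13.7, 14.3 and 10.6 in LiTra, and 29.1, 24.2, 25.6 and 26 in Co. Li averaged 12.8 ± 1.53, Tra 22.9 ± 4.80, LiTra 13.3 ± 1.88 and Co 26.2 ± 2.04 (SD, n = 4 each). All Li and all LiTra libraries lay below all Co libraries, and all LiTra libraries below all Tra libraries. With Tpm2 in the sum the ratio was 9.96%, 9.55%, 12.2% and 9.40% in Li, 21.8%, 16.1%, 13.6% and 14.4% in Tra, 10.7%, 6.58%, 8% and 6.37% in LiTra, and 26.7%, 12.0%, 23.5% and 23.6% in Co, so that Li3 then overlapped Co2, while LiTra still lay below Tra and Co. Among the libraries poorest in contractile RNA, Tra3 with 129 CPM and Co2 with 185 CPM had 29.1% and 24.2%, while LiTra2 with 157 CPM had 13.7%. These ratios were chosen after seeing the data and carry no test.

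Mb and Pygm set against Acta1 parted the same groups. Mb per Acta1 was 10.5%, 4.39%, 16.6% and 23.2% in Li gingiva, 52.7%, 83.1%, 66.9% and 49.3% in Tra, 15.1%, 17.0%, 24% and 12.1% in LiTra, and 94.5%, 90.7%, 86.4% and 68.1% in Co. Pygm per Acta1 was 6.80%, 6.41%, 6.95% and 8.01% in Li, 21.2%, 16.5%, 19.6% and 19.5% in Tra, 6.02%, 6.27%, 8.16% and 4.29% in LiTra, and 21.1%, 29.1%, 23.1% and 18.9% in Co. Both ligated groups lay wholly below both groups without a ligature. The calcium pump did likewise, with Atp2a1 per Acta1 at 46.5%, 46.7%, 55.0% and 48.2% in Li, 95.1%, 82.4%, 92.9% and 109% in Tra, 49.2%, 20.7%, 49.5% and 31.5% in LiTra, and 122%, 136%, 135% and 128% in Co. Eno3 per Acta1 was 15.8%, 7.05%, 15.7% and 25.6% in Li, 43.1%, 47.1%, 64.8% and 36.4% in Tra, 17.5%, 39.8%, 34.5% and 14.5% in LiTra, and 47.8%, 105%, 45.9% and 35.6% in Co. For Eno3, LiTra2 lay above Tra4 and Co4, so LiTra overlapped both groups without a ligature.

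The choice of denominator mattered, since Acta1 was itself higher relative to Ttn in most treated libraries. Acta1 per Ttn was 146%, 253%, 184% and 137% in Li gingiva, 102%, 70.8%, 158% and 130% in Tra, 93.8%, 120%, 157% and 113% in LiTra, and 86.3%, 52.2%, 81.4% and 91% in Co. All 8 ligated libraries and 3 of the 4 Tra libraries lay above every Co library. Against Ttn the metabolic genes parted from each other. Mb per Ttn was 15.4%, 11.1%, 30.5% and 31.8% in Li, 53.8%, 58.9%, 106% and 63.9% in Tra, 14.1%, 20.4%, 37.7% and 13.7% in LiTra, and 81.6%, 47.3%, 70.3% and 61.9% in Co. Ckmt2 per Ttn was 4.37%, 2.84%, 5.11% and 6.01% in Li, 19.3%, 7.91%, 8.44% and 12.0% in Tra, 1.85%, 0%, 2.89% and 1.05% in LiTra, and 27.7%, 11.7%, 24.3% and 22.3% in Co. Both stayed below Co without overlap in both ligated groups and overlapped Co in Tra, whereas Ckm, Eno3 and Atp2a1 per Ttn overlapped Co, and Pygm per Ttn did so in Li but not in LiTra. Within the creatine kinase pair, Ckmt2 per Ckm was 10.1%, 6.82%, 9.70% and 16% in Li, 22.2%, 15.2%, 9.32% and 19.8% in Tra, 4.89%, 0%, 11% and 4.40% in LiTra, and 35.2%, 34.8%, 35.4% and 29.7% in Co. All 12 treated libraries had a smaller mitochondrial part of creatine kinase RNA than all 4 Co libraries.

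Desmin and myogenin had higher ratios to titin in the treated groups. Des per Ttn was 116%, 167%, 109% and 93.7% in Li gingiva, 34.9%, 41.3%, 55.3% and 57.8% in Tra, 75.3%, 102%, 92.8% and 126% in LiTra, and 25.4%, 34.7%, 25.6% and 24.2% in Co. Every treated library was above every Co library, and LiTra was above Tra throughout. Myog per Ttn lay between 1.19% and 5.04% for Li, between 0.495% and 3.78% for Tra and between 0.208% and 4.87% for LiTra, against at most 0.0582% for Co. The Co values rest on 5, 0, 8 and 10 counts of Myog. Myog per Acta1 also parted, at no less than 0.221% in treated libraries and at most 0.0639% in Co. Tnnt1 per Tnnt3, slow over fast troponin T, was 3.37% to 10.4% in Li and 2.89% to 12.3% in LiTra, against 0.265% to 0.462% in Co1, Co3 and Co4 but 4.86% in Co2, so those groups overlapped.

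**Figure D4:**
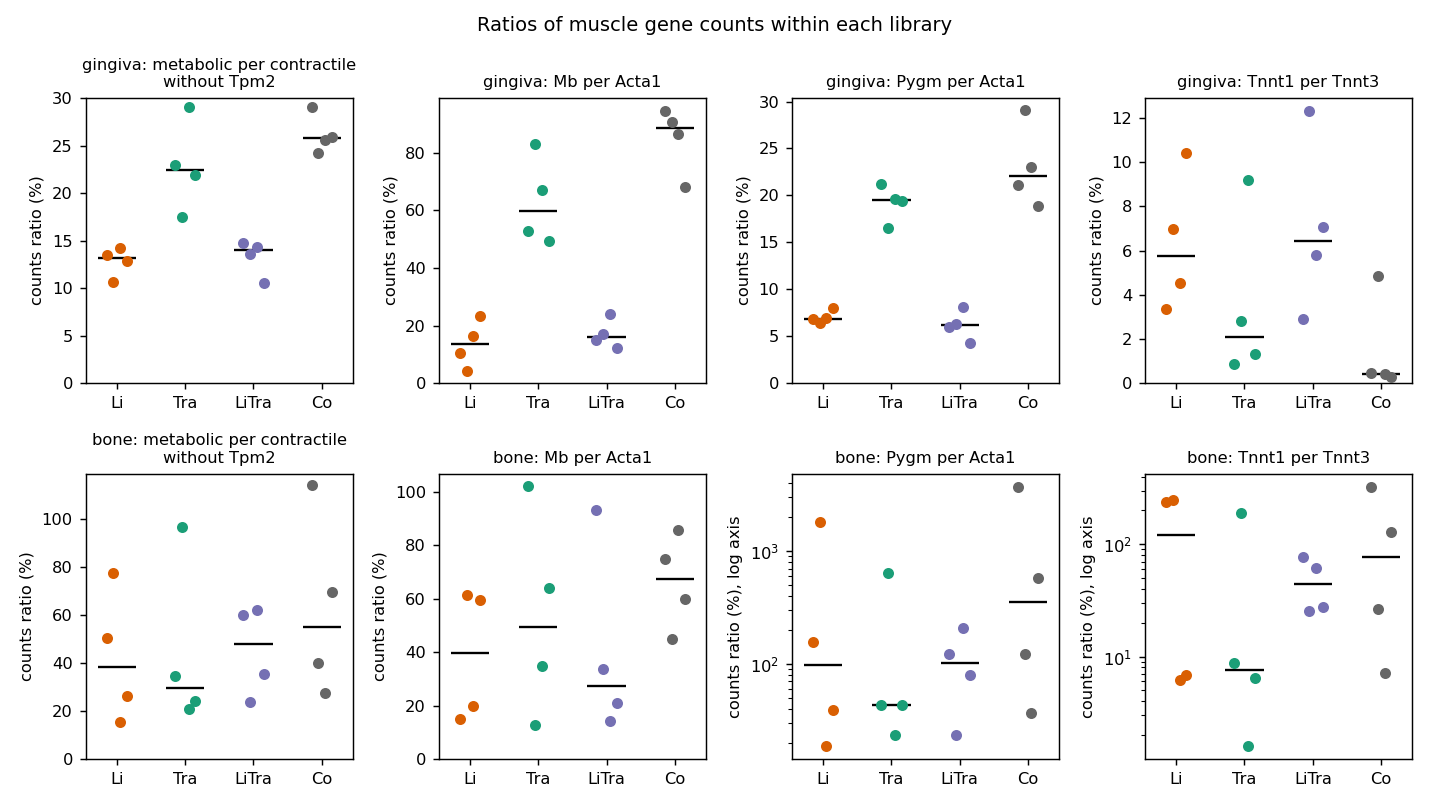
Ratios of counts within each library, in percent, for gingiva (top) and bone (bottom): metabolic sum per contractile sum without Tpm2, Mb per Acta1, Pygm per Acta1, and Tnnt1 per Tnnt3. Points are libraries and lines are group medians; the last 2 bone panels have a log axis. In gingiva the Li and LiTra points of the first 3 panels lie below all Co points, and in bone the groups overlap in all 4 panels.

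A fit with the library's contractile level as a covariate tested a related point gene by gene. The covariate was log2 of the summed contractile CPM, with Tpm2 included, unlike in the ratios above. The fit was chosen after seeing the data, and contractile genes are not counted since they make up the covariate. In Li against Co gingiva, 7 of the 16 other muscle genes passed, where 8.01% of all genes were called. Parentheses give the log2 difference ± SE, then edgeR's adjusted p. Mb (-1.62 ± 0.29, 0.00594), Ckmt2 (-2.05 ± 0.43, 0.012), Eno3 (-0.76 ± 0.18, 0.0219) and Mylk4 (-1.81 ± 0.52, 0.047) were lower at equal contractile level. Des (2.15 ± 0.28, 0.00159), Myog (6.24 ± 1.01, 0.00411) and Casq2 (1.43 ± 0.40, 0.0412) were higher. The count was 4 without Co1, 4 without Co3 and 4 without Li2, and Mb, Ckmt2, Des and Myog were called in every fit that left out 1 library. With Ttn as the covariate, Eno3, Mylk4 and Casq2 lost their calls. Casq2 also lost its call with Tpm2 left out of the covariate (edgeR's adjusted p = 0.0578), and Mylk4 with the replicate block (edgeR's adjusted p = 0.0927).

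In LiTra against Co gingiva, 8 of these 16 genes passed, where 20% of all genes were called. Mb (-1.68 ± 0.33, 0.00406), Ckmt2 (-3.15 ± 0.52, 0.00184), Pygm (-1.10 ± 0.22, 0.00494), Eno3 (-0.72 ± 0.20, 0.0235), Ky (-3.74 ± 0.91, 0.0117) and Mylk4 (-3.55 ± 0.72, 0.00496) were lower. Des (1.95 ± 0.31, 0.00149) and Myog (6.74 ± 1.22, 0.00278) were higher. Eno3 lost its call with Ttn as the covariate and without Co2 or LiTra1. Ckm did not pass at equal contractile level (-0.60 ± 0.35, 0.265), nor did Pgam2 (-0.20 ± 0.32, 0.73) or Atp2a1 (-0.87 ± 0.37, 0.116). With Ttn as the covariate, however, Ckm (log2 -1.04, edgeR's adjusted p = 0.0166) and Atp2a1 (log2 -1.17, adjusted p = 0.0482) were called lower. In LiTra against Tra, 6 passed, where 17.9% of all genes were called: Mb, Ckmt2, Pygm, Ky and Mylk4 were lower and Des was higher, of which Pygm, Mylk4 and Des were called in every fit that left out 1 library. With Ttn as the covariate, LiTra against Tra also gave lower calls for Ckm, Eno3 and Atp2a1 (edgeR's adjusted p = 0.00346, 0.0336 and 0.0213). In Tra against Co, 0 of 16 and 0% of all genes passed. LiTra against Li gave 0 of 16, where 0.71% of all genes were called, and Ckmt2 there had a log2 difference of -1.10 ± 0.49 (adjusted p = 0.231).

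**Figure D5:**
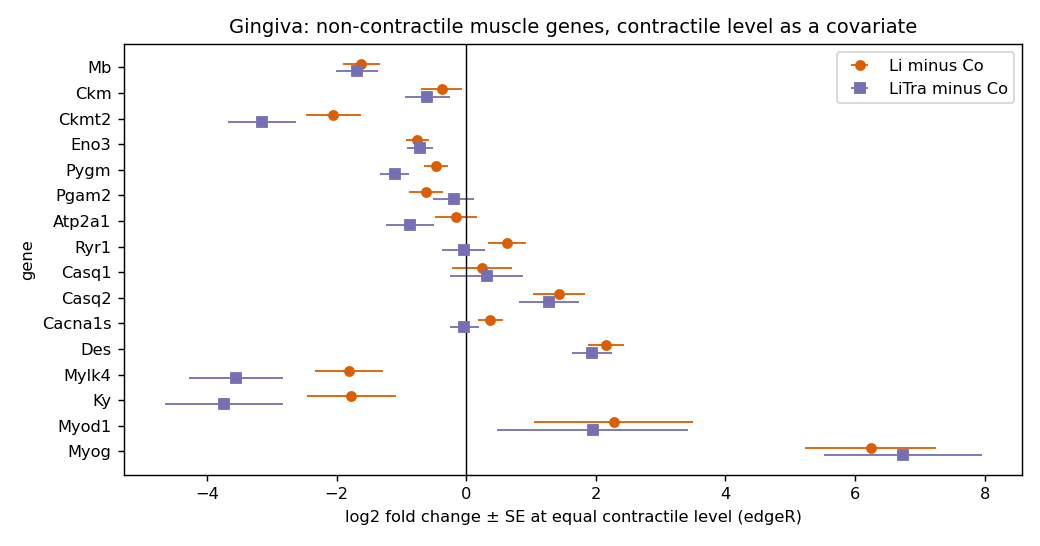
Log2 fold change with its SE (edgeR) of the 16 muscle genes that are not contractile, in gingiva, at equal contractile level. Circles are Li minus Co and squares are LiTra minus Co. Mb, Ckmt2, Eno3 and Mylk4 lie left of 0 in both comparisons, and Des and Myog lie right of 0 in both.

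Other genes of muscle, from lists drawn up by function, were counted as well. In LiTra against Co, 7 of 15 other muscle metabolism genes fell and 0 rose, 2 of 25 other sarcomere genes fell and 0 rose, and 4 of 16 other calcium and excitation genes fell, where 11.5% of all genes were called lower. The median log2 differences of these lists were -2.80, -2.18 and -2.42. Gpd1, the glycerol phosphate dehydrogenase of the cytoplasm, had the smallest adjusted p of its list (log2 -4.52 ± 0.73, adjusted p = 9.94e-04). Gpd1 is also strongly expressed in fat cells. In LiTra against Tra, 7 of 15 metabolism and 2 of 25 sarcomere genes fell, where 9.44% of all genes were called lower. Of 11 smooth muscle genes other than Des, 1 rose and 4 fell in LiTra against Co, where 22.9% of all genes were called.

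In bone the contractile sum was 131, 103, 824 and 383 CPM in Li libraries 1 to 4, 663, 93.0, 1497 and 516 CPM in Tra, 101, 332, 150.2 and 171 CPM in LiTra, and 108, 223, 785 and 123 CPM in Co. The metabolic sum was 20.7, 19.1, 108 and 75.5 CPM in Li, 199, 27.8, 292 and 106 CPM in Tra, 20.5, 49.0, 24.8 and 24.3 CPM in LiTra, and 23.2, 52.0, 193 and 30.8 CPM in Co. Tpm2 stood at 64.3 to 132 CPM in every bone library and made up 81.3% of the contractile sum in Co1. Single libraries stood far above others of their group: Myh1 stood at 5.94, 0.843, 240.2 and 78.6 CPM in Li, 122, 1.04, 379 and 129 CPM in Tra, 3, 41.4, 3.15 and 17.4 CPM in LiTra, and 0.213, 9.48, 158 and 1.62 CPM in Co. The groups overlapped for Myh1 in each comparison. The lead of Tra3 rests on its scaling factor, since without TMM scaling Myh1 stood at 144, 1.26, 140.5 and 153 CPM in Tra.

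Other genes followed the same libraries in bone. Acta1 stood at 3.75, 0.281, 112 and 27.2 CPM in Li bone, 51.5, 1.65, 165 and 42.1 CPM in Tra, 3.04, 29.6, 3.36 and 7.56 CPM in LiTra, and 0.284, 12.5, 62.9 and 2.17 CPM in Co. Ckm stood at 1.27, 0.605, 27.3 and 21.8 CPM in Li, 46.5, 0.571, 98.5 and 27.1 CPM in Tra, 3.27, 10.7, 2.52 and 2.31 CPM in LiTra, and 0.515, 15.1, 54.4 and 2.51 CPM in Co. Li3, Tra3, LiTra2 and Co3 were the highest of their groups for both, although without TMM scaling Ckm stood higher in Tra1 than in Tra3, at 54.8 against 36.5 CPM. Tnnt1 varied less: its Li libraries lay at 1.96 to 4.46 CPM, its Tra libraries at 2.06 to 6.12, its LiTra libraries at 1.22 to 4.61 and its Co libraries at 3.82 to 4.74 CPM. LiTra2 and Co3 were again the highest of their groups for Tnnt1, but Li3 and Tra3 were not. Myod1 was above 0 in 4 bone libraries, at 0.0297 to 0.221 CPM, and Myog in 5, at 0.0635 to 1.24 CPM, and both were below the filter on low counts.

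No muscle gene passed against Co in bone. In Li against Co 0 of 38 passed, where 3.51% of all genes were called; 1 had an unadjusted p under 0.05 and DESeq2 called 1. In Tra against Co 0 of 38 and 0% of all genes passed, with 2 unadjusted and 0 by DESeq2. In LiTra against Co 0 of 38 passed, where 16.9% of all genes were called; 4 had an unadjusted p under 0.05, the smallest adjusted p was 0.0553, and DESeq2 called 2. The median log2 difference there was -1.08 for contractile genes, -1.66 for metabolic genes and -0.01 for all genes tested. Tnnc1 was the 1 of 38 genes whose bone libraries all lay above Co in both ligated groups, as 6.16% of all genes tested did, at 0.871, 1.21, 1.24 and 1.98 CPM in Li and 0.878, 1.22, 1.54 and 1.13 CPM in LiTra, against 0.266, 0.774, 0.592 and 0.616 CPM in Co, and it did not pass (adjusted p = 0.117 for Li and 0.0857 for LiTra). LiTra against Li gave 0 of 38 and 0% of all genes, with 0 unadjusted, and the interaction gave 0 of 38 and 0%, with 4 unadjusted.

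Pygm was the 1 muscle gene called in bone. It stood at 3.71, 6.94, 7.02 and 6.01 CPM in LiTra bone, against 22.4, 10.6, 38.5 and 18.1 CPM in Tra bone, with no overlap (log2 -1.91 ± 0.47, adjusted p = 0.0281). Across all 21205 genes, 5.56% were called in this comparison and 2.49% were called lower; 13 muscle genes had an unadjusted p under 0.05 and DESeq2 called 9 lower. Pygm in Co bone stood at 10.6, 15.1, 23.2 and 12.6 CPM, also above all LiTra libraries. In bone, Pygm did not follow Acta1. Pygm per Acta1 ran from 18.7% in Li3 to 3744% in Co1 bone (599 counts against 16), while in gingiva it ran from 4.29% to 29.1%. Which cells gave this Pygm RNA was not tested. The call was lost without Tra1, Tra4 or any 1 LiTra library, without Tra3, LiTra1 and Co3 together, without these and Li2 together, with library totals as scaling and with the compared groups alone; without Co3, 2 genes passed. With the contractile level as a covariate, Pygm was the 1 of 14 other muscle genes to pass in Li against Co (log2 -0.80, adjusted p = 0.0314), where 3.37% of all genes were called, in LiTra against Co (log2 -1.17, adjusted p = 0.00112), where 18.3% of all genes were called, and in LiTra against Tra (log2 -1.09, adjusted p = 0.00935), where 4.81% were called. In Li against Co this call was lost without Co1, Co2, Co4, Li1, Li2 or Li4, with Ttn as the covariate (adjusted p = 0.052) and with the contractile level without Tpm2 (adjusted p = 0.0655). In LiTra against Tra it was lost without Tra2, and in LiTra against Co it was called in each of these fits.

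Within bone libraries, the metabolic sum per contractile sum was 15.8%, 18.6%, 13.1% and 19.7% in Li, 30.0%, 29.9%, 19.5% and 20.5% in Tra, 20.3%, 14.7%, 16.5% and 14.2% in LiTra, and 21.4%, 23.3%, 24.6% and 25.1% in Co. All Li and LiTra libraries lay below all Co libraries on this measure. Without Tpm2 the ratio was 50.3%, 77.5%, 15.6% and 26.2% in Li, 60.2%, 24%, 62.2% and 35.4% in LiTra, and 114%, 40.1%, 27.6% and 69.8% in Co, and the groups overlapped. Mb per Acta1 overlapped in bone as well, at 14.9% to 61.5% in Li, 14.0% to 93.3% in LiTra and 44.9% to 85.9% in Co. Of the metabolic sum, Pygm reached 3744% of Acta1 in Co1 bone and Eno3 reached 4162% in Li2 bone. How much of the bone metabolic sum came from muscle fibres was not tested.

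Co bone held less muscle RNA than Co gingiva. Of the 40 genes, 29 were lower in bone and 2 were higher, where 53.6% of all 22559 genes were called, 26.4% lower and 27.2% higher. By role, 17 of 24 contractile, 5 of 6 metabolic, 4 of 5 calcium and 2 of 3 support genes and 1 of 2 regulators were lower. Acta1 stood at 0.284, 12.5, 62.9 and 2.17 CPM in Co bone, against 353, 13.9, 356 and 414 CPM in Co gingiva (log2 -3.93 ± 1.58, adjusted p = 0.0383). Tpm2 had the smallest adjusted p (log2 -1.85 ± 0.31, adjusted p = 1.73e-05), followed by Myoz2 (-4.16 ± 1.06, 0.00175), Pgam2 (-3.32 ± 0.92, 0.0036) and Myh2 (-5.34 ± 1.55, 0.00515). The slow genes Myl3 (3.27 ± 1.31, 0.0369) and Tnnt1 (2.02 ± 0.72, 0.0197) were higher in bone, with Tnnt1 at 3.82, 4.10, 4.74 and 4.61 CPM in Co bone, all above Co gingiva. Myl3 had 4, 0, 6 and 0 counts in Co gingiva, and its call was lost with the replicate block (adjusted p = 0.0642), with library totals (adjusted p = 0.0545), with no filter on low counts (adjusted p = 0.0608) and in 5 fits that left out 1 library. The call of Tnnt1 was lost without gingiva Co2. Tnnt1 did not follow the fast Tnnt3 in Co bone, where Tnnt3 stood at 1.17, 15.3, 66.0 and 3.58 CPM. Which cells gave the Tnnt1 RNA of bone was not tested. The count of 31 was 14 without bone Co1, 16 without bone Co2 and 13 without bone Co4.

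The treatments were also compared between tissues. The LiTra effect in bone minus that in gingiva passed for 0 of 40 genes, where 12.3% of all genes were called; 6 had an unadjusted p under 0.05, and Myh2 had the smallest adjusted p (log2 5.82 ± 1.96, adjusted p = 0.0511). Without bone Tra3, LiTra1, Co3 and Li2, 2 genes passed, Myh2 among them (log2 7.30, adjusted p = 0.0109). The Li effect in bone minus that in gingiva passed for 0 of 40, where 2.04% of all genes were called; 5 had an unadjusted p under 0.05, and Tnnt1 came nearest (log2 -3.52 ± 1, adjusted p = 0.0603). With all libraries, a difference between the tissues in how these genes moved with treatment was therefore not shown.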

How the data were processed

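Poly(A) RNA of 16 bone and 16 gingiva libraries was measured. Per the submitters' processing notes, which give no order of steps, the tools included HISAT2 2.2.1, Trimmomatic 0.39, StringTie 2.1.7, DESeq2 1.32.0 and FastQC 0.11.9, and the build was GRCm39. The estimated counts per gene deposited by the authors were all whole numbers, so rounding changed none. Column names CR and LiCR were read as the composite resin groups Tra and LiTra. Symbols came from a GENCODE M21 table, which matched 52083 of 55359 identifiers and is of another build, so no gene coordinates were taken from it. Promoters are RefSeq's, in GRCm38.p6. No 2 libraries were identical.

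Counts were tested with edgeR 4.0.16 (glmQLFit and glmQLFTest, R 4.3.3) after filterByExpr (minimum count 10, minimum total 15) and TMM scaling, in 1 fit of the 4 groups per tissue or of the 8 groups in both, with Benjamini-Hochberg adjustment over all genes tested and a threshold of 0.05. SE is the absolute log2 difference over the square root of F. Alternatives used DESeq2 1.42.0 and limma 3.58.1. Ratios and plots used Python 3.11.15 with pandas 2.3.3. The covariate fit, the ratios without Tpm2 or per Ttn, and the fits that leave out bone Li2 with Tra3, LiTra1 and Co3 were chosen after seeing the data. Simulated data for LiTra against Co changed genes drawn at random from all genes that passed the filter, 100 by 2-fold and 100 by 4-fold. The test recovered 45% of 2-fold and 74% of 4-fold changes in gingiva (19646 genes), and 29% and 60% in bone (20809 genes). With the covariate it recovered 45% and 62% in gingiva (19590 genes) and 30% and 60% in bone (20468 genes). False calls numbered 11 in gingiva and 8 in bone, and 1 and 6 with the covariate. Recovery was not measured for the muscle genes, which varied widely between libraries, so these shares need not hold for them.

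The 40 genes and the other lists were chosen with earlier results of these data known. By rule, 16 genes get a value in every library, other genes are named where called with up to the 4 smallest p each way in a comparison, or, in the other lists, up to the 3 smallest. Actn2, Myot, Myl1, Tnnc2, Tcap, Myoz1, Ldb3, Ryr1, Casq1, Casq2, Cacna1s and Ttn were named beside that rule, after their values were seen. So were Pax7, Pax3 and Myf5 of the other lists.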

Additional observations from a re-analysis of the deposited data

Results flagged for a closer look

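Of 152 groups of 4 libraries tested for 1 library far from the other 3, 37 stood out by Dixon's test at 95%. The groups share libraries and genes, and the test assumes normal values while CPM are skewed. The 37 are therefore a description and cannot be set against a rate by chance. Values are CPM. In gingiva, Co2 was low for the sum of all 40 genes (459), the contractile sum (373), the metabolic sum (44.9), Acta1 (13.9), Myh4 (0.575), Tnnt3 (10.3), Ckm (8.96), Mb (12.6), Pygm (4.05), Des (9.24) and Eno3 (14.6). The other 3 Co libraries lay at 5643 to 5961 for the sum of all 40. Gingiva Tra1 was high for Myh4 (1185), Ckm (863), Pygm (216) and Atp2a1 (965). Gingiva Li2 was high for Tnnt1 (21.9), Des (688), Tpm2 (437) and Myog (20.7). Gingiva LiTra2 was high for Myl2 (0.276).

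In bone, Co3 was high for the sum of all 40 genes (1116), the contractile sum (785), the metabolic sum (193), Myh2 (1.37), Myh1 (158), Mb (54.0), Atp2a1 (81.2) and Eno3 (38.8). Nasal gland genes took 47.0% of the counts of Co3. Bone LiTra2 was high for the metabolic sum (49.0), Acta1 (29.6), Myh2 (13.7), Tnnt3 (18.1), Tnnt1 (4.61), Ckm (10.7) and Myog (0.341). Bone Li3 was high for Myod1 (0.221) and Myog (1.24).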

How the results depend on the processing

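Myl2, Myl3, Myod1 and Myog fell below the filter on low counts in 1 tissue each and could not be tested there. Spread between libraries limits the other genes: Mylk4, the widest gene above 0 throughout, varied by 960-fold across gingiva. Over the alternatives that kept all libraries or left out those rich in nasal gland RNA, 151 counts of calls stayed within 1.5 times the reported one and 36 did not. The 36 follow, with the cause not tested. In gingiva, LiTra against Co (17) gave 11 with no filter, 5 with limma-voom and 29 with the compared groups alone (26 lower, 3 higher). LiTra against Tra (15) gave 24 with DESeq2, 0 with voom and 9 with the contractile covariate. Li against Co (5) gave 0 with no filter, 0 with voom, 0 with the compared groups alone and 13 with the covariate. These counts with the covariate, and those for bone below, are over all tested muscle genes. They take in contractile genes, which make up the covariate, and so are not a result about those genes. DESeq2 called 2 in Tra against Co, 6 in LiTra against Li and 1 in the interaction, where edgeR called 0. With Ttn as the covariate, the 7 other genes called in Li against Co became 4.

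In bone, LiTra against Tra (1) gave 0 with library totals as scaling, 0 with the compared groups alone, 0 without Tra3, LiTra1 and Co3, 0 without these and Li2 (a set chosen after seeing the data) and 9 with DESeq2. LiTra against Co (0) gave 1 with a filter of CPM over 1 in 4 libraries, 2 with DESeq2, 1 with voom, 2 with the groups alone and 2 with the covariate. Li against Co (0) gave 1 with DESeq2 and 1 with the covariate. The 1 call of the covariate fit in Li against Co became 0 with Ttn and 0 without Tpm2, and that in LiTra against Tra became 2 with Ttn. Between tissues, the LiTra effect (0) gave 1 with the CPM filter 2 without Tra3, LiTra1 and Co3 of bone and 2 without these and Li2, and the Li effect (0) gave 1 with the CPM filter.

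Leaving out 1 library at a time gave, in gingiva, 0 to 5 (Li against Co), 0 to 0 (Tra against Co), 6 to 23 (LiTra against Co), 0 to 1 (LiTra against Li), 2 to 24 (LiTra against Tra) and 0 to 0 (interaction). In bone it gave 0 to 0, 0 to 0, 0 to 1, 0 to 0, 0 to 2 and 0 to 0 in the same order. Between tissues it gave 13 to 32 for Co, 0 to 1 for the Li effect and 0 to 2 for the LiTra effect. The covariate fit gave 4 to 7 in gingiva and 0 to 1 in bone for Li against Co, 7 to 9 and 1 to 2 for LiTra against Co, and 4 to 7 and 0 to 2 for LiTra against Tra.

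Among called results and named genes, direction turned in 5 cases, each with the contractile covariate, chosen after seeing the data. In LiTra against Co, Acta1 became 0.89 and Des 1.95 on the log2 scale. In LiTra against Tra, Myh4 became 0.62, Acta1 0.69 and Des 1.57. Acta1 and Myh4 are part of the sum that makes the covariate, so this fit cannot show a direction of their own.

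Replicate numbers are shared by the groups, but the labels do not say that they pair animals. Deviations of same-numbered libraries correlated at -0.33 to 0.55 in bone (median -0.08) and -0.21 to 0.15 in gingiva (median 0.01), over 24 pairs each, so the numbers were not taken to pair samples. With the replicate block, calls in gingiva were 0 in Li against Co, 15 in LiTra against Co and 4 in LiTra against Tra, and in bone 1 in LiTra against Co.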

Other observations

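Some genes of embryonic and regenerating muscle fibres were higher in Li gingiva. In Li against Co, 3 of 9 such genes rose and 0 fell in edgeR's test, where 7.49% of all genes were called. Myh3, the embryonic myosin heavy chain, stood at 0, 168, 28.1 and 15.9 CPM in Li gingiva and at 0.194, 0, 0.144 and 0 CPM in Co gingiva (adjusted p = 0.0198). Myl4, a light chain of embryonic muscle and of the heart atrium, had a log2 difference of 4.36 ± 1.01 (adjusted p = 0.0197), and Mymk, myomaker, which fuses myoblasts, passed as well (adjusted p = 0.0251). Mymk stood at 0, 8.10, 0.537 and 0.577 CPM in Li, and Li2 was the highest Li library for each of Myh3, Myl4 and Mymk. Calls in the lists beside the 40 genes were not refitted without single libraries or under the alternatives. The 5 muscle gene calls of Li against Co were lost without Li2. The summed level of the 9 genes was 26.1, 462, 85.5 and 66.3 CPM in Li, 131, 73.7, 25 and 33.4 CPM in Tra, 26.3, 38.1, 36.3 and 39.8 CPM in LiTra, and 34.2, 27.2, 39.2 and 28.5 CPM in Co. Li1 lay below all Co libraries in this sum, while the other 3 Li libraries lay above them. In LiTra against Co 0 of the 9 passed, 2 with an unadjusted p under 0.05. In LiTra against Li 0 of the 9 passed, where 0.0844% of all genes were called, although all 9 differences were negative and 6 had an unadjusted p under 0.05.

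Of 9 tested satellite cell and myogenic factor genes, Calcr and Msc rose and Tbx1 fell in Li against Co gingiva (adjusted p = 0.0179, 0.0453 and 0.0308 in edgeR's test), where 7.49% of all genes were called. Calcr reached at most 1.44 CPM in gingiva, against 2.71 to 14.6 CPM in bone. Pax7 overlapped in gingiva, at 0, 1.23, 0.268 and 0.0666 CPM in Li and 0.364, 0.0958, 0 and 0.529 CPM in Co. Whether satellite cells changed was not tested. In bone, Pax7 stood at 56.6 CPM in Tra3, against a median of 0.0573 CPM over the 16 libraries. Nasal gland genes took 22.7% of the counts of Tra3, and its scaling factor was 0.371. Pax3 stood at 47.0 CPM in the same library, against a median of 0.858 CPM. The myogenic factors were low there, with Myf5 at 0.367, Myod1 at 0.183 and Myog at 0 CPM. The cells that gave this Pax7 RNA were not tested.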
